A study of Mus musculus with 4 samples.

Results

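The regions described here are Elavl binding sites of N2A cells that lay deep inside protein-coding genes. N2A is an established mouse neuroblastoma line. Sites were mapped by HITS-CLIP, in which proteins are fixed to bound RNA by ultraviolet irradiation, immunoprecipitated, and the protected RNA fragments are sequenced. A peak was called deep when it touched the span of exactly 1 coding gene of GRCm38 and its midpoint lay more than 10 kb from the gene end, the end being taken on the strand of the peak. The rule used position alone. It selected 963 of the 7335 N2A peaks, in 590 genes, and these were 963 of the 105110 peaks of the whole series.

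The study held 1 N2A sample, made with a degenerate linker of 7 nt, and 3 samples of mouse cortex, made with linkers of 25 nt. The labels name no genotype, strain, treatment or antibody for either group, and the name of the cortex list carries the term 2month, which is not explained. Each group was given as 1 peak list with a p-value per peak and no read count. The depth is therefore unknown, no spread between samples can be given, and no test across samples was possible. Intervals are Wilson 95% intervals, or Newcombe intervals made from them for differences, and they cover counting error only. Peaks of 1 library and peaks of 1 gene are not replicates. Cell line and tissue cannot be told apart from linker length. Of 14 sympathoadrenal and neuroblastoma markers, 9 carried N2A peaks, among them Hand2 and Mycn. None of 15 glial and microglial markers and none of 7 mature cortical neuron markers carried an N2A peak.

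Elavl proteins (Hu proteins) are RNA-binding proteins with a preference for U-rich and AU-rich sequence. In the cytoplasm they are best known for binding 3′ untranslated regions and prolonging the life of mRNAs. In the nucleus the neuronal members also bind introns of pre-mRNA, where they influence the choice of exons and of polyadenylation sites. A peak far from the annotated gene end can lie in an intron, in an early exon, or in the last exon of a shorter transcript. The reference used here gives gene spans without exons, and these possibilities cannot be told apart.

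Reference sequence was read where a deep peak lay within a RefSeq promoter window (250 bases before to 50 after an annotated start) or a microRNA hairpin of GRCm38.p6, and peaks only partly inside a window are not shown. These sequences are shown because they are the members whose letters could be set beside the known sequence preference. The first pair are whole peaks, at chr8:120488645-120488695 (plus strand) and chr1:179960855-179960905 (plus strand), that ended 170 and 183 nt upstream of an annotated start of the gene named. Their starts are listed as 120488644 and 179960854 and were read here as counting from 0. Read as counting from 1, the peaks have 52 bases, with 38.5% T in Gse1 and 36.5% T in Cdc42bpa. Capitals mark runs of at least 3 T.
Gse1: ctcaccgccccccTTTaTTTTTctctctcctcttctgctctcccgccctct
Cdc42bpa: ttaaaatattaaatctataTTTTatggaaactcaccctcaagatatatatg
T made up 39.2% of the Gse1 peak and 37.3% of the Cdc42bpa peak, against 24.3% and 24.4% over the same positions of all 32851 windows. C made up 51.0% of the Gse1 peak, and A made up 41.2% of the Cdc42bpa peak. The motif TTTTT was found in the Gse1 peak on the strand of the peak, as in 6.20% of all windows at those positions (12.2% on either strand). It was in neither strand of the Cdc42bpa peak, against 6.40% of windows on the gene strand and 12.5% on either. Gse1, a coiled-coil protein found with histone demethylase complexes, had a peak p of 0.00618 and an overlapping cortex peak. The Gse1 peak also touched the long noncoding RNA gene Gm51556. Cdc42bpa, a kinase that acts downstream of Cdc42, had a peak p of 0.0738 and no overlapping cortex peak.

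The remaining sequences are the hairpin and mature form of the microRNA gene Mir703, at chr5:98475556-98475664 (minus strand) within the span of Cfap299. They are shown because the peak covers most of the mature form. Capitals mark the 51 bases covered by a deep peak in the hairpin, and bases 2 to 8, the seed, in the mature form.
Mir703 hairpin: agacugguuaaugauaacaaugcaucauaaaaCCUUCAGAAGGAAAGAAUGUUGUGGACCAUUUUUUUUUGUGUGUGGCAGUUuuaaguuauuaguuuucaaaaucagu
mmu-miR-703: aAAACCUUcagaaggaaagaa
The covered part held 39.2% U and a run of 9 U, and 17 of the 21 bases of the mature form lay in it. This peak had a p of 0.000280. The second deep peak of Cfap299, at 98475490 to 98475541 just outside the hairpin, had a p of 1.02e-21 and overlapped the only cortex peak of that gene.

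Deep sites were a small part of Elavl binding in N2A and the larger part in cortex. Among peaks in exactly 1 coding gene, 14.3% (13.5 to 15.1) were deep in N2A, 963 of 6739. In cortex the share was 75.5% (75.2 to 75.7), 68778 of 91134. Restricting both lists to genes over 10 kb, which alone can hold a deep peak, gave 16.0% and 77.3%. The other N2A peaks comprised 399 in no coding gene and 197 in several. The distance classes were of unequal width, so the fullest class was not the densest per kb. In N2A the fullest was 2 to 5 kb from the gene end, with 21.4% of peaks. The narrower classes of 1 to 2 kb and 0.1 to 0.2 kb held 21.1% and 5.55%, and were denser per kb. In cortex the fullest class was 200 to 500 kb, with 15.4%, and the narrower class of 20 to 50 kb held 14.6%.

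**Figure D1:**
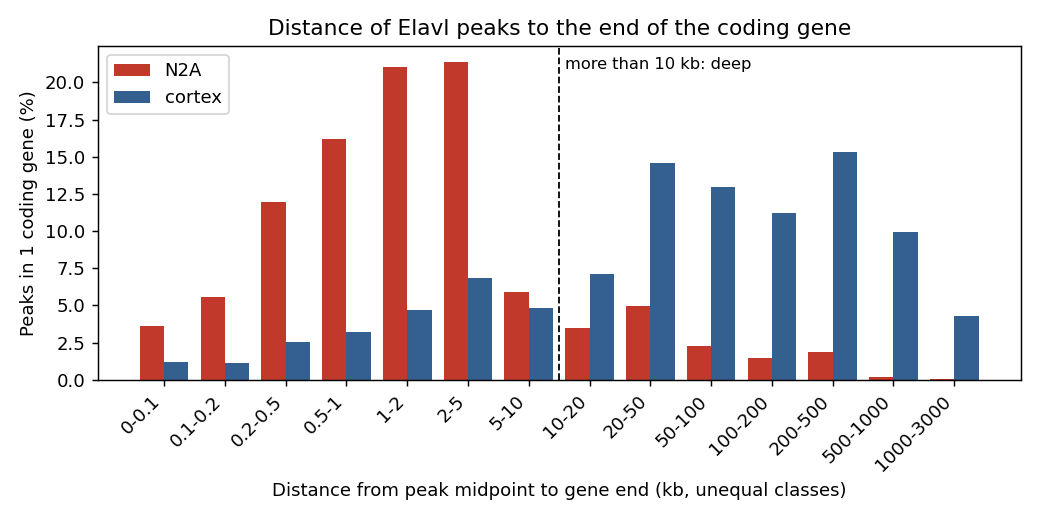
Share of peaks in exactly 1 coding gene (y axis, %) by distance from the peak midpoint to the gene end (x axis, kb, classes of unequal width), for N2A (red) and cortex (blue). N2A peaks gather within 5 kb of the end, whereas 75.5% of cortex peaks lie to the right of the 10 kb limit.

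Deep N2A peaks lay a median of 39.0 kb from the gene end (quartiles 20.3 and 99.4 kb) and a median of 28.3 kb from the gene start. Just beyond the limit lay peaks of Fbrs, at 10.02 kb, and BC005537, at 10.04 kb, with p-values of 0.0194 and 0.0466. Just within it lay peaks of Hook3, at 9.98 kb, and Cadm1, at 9.96 kb, with p-values of 0.00283 and 4.28e-13. The Cadm1 peak belonged to a run of peaks that the limit divided. With each gene cut into 5 equal parts, 295 deep peaks (30.6%) lay in the part nearest the start and 85 (8.83%) in the part nearest the end. Deep cortex peaks had shares of 28.2% and 9.10% in the same parts. In both lists the rule itself removes the end of the gene.

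The genes with deep N2A peaks were long. Their median span was 78.1 kb, against 38.0 kb for the other genes over 10 kb with N2A peaks near the end and 33.1 kb for all coding genes over 10 kb. A deep peak was found in 4.23% of the 13961 coding genes over 10 kb, from 2.20% of genes of 10 to 50 kb to 14.1% of genes over 500 kb. Per length the order was the opposite. Deep N2A peaks numbered 2.20 per Mb in genes of 10 to 50 kb and 0.304 per Mb in genes over 500 kb. Deep cortex peaks numbered 54.4 and 119 per Mb in the same classes. Genes over 500 kb held 6.02% of the deep peaks of N2A and 33.0% of those of cortex. Across the 590 genes, the count of deep peaks and the length of the gene had a rank correlation (Spearman) of 0.13. It is a description over genes of 1 library, most of them tied at 1 peak.

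In the 595 pairs of gene and strand that held deep N2A peaks, the last 10 kb carried 14.8 N2A peaks per 100 kb and the deeper stretch 1.13, a ratio of 13.2. The cortex list in the same stretches had 33.8 and 13.2 peaks per 100 kb, a ratio of 2.56. The pairs were chosen for a deep N2A peak, so the N2A density of the deeper stretch is a description only. Cortex peaks covered 0.681% of the deeper stretch and 1.74% of the last 10 kb.

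Deep peaks were weaker by the authors' p-value than those near the gene end. Their median p was 0.0239, against 0.00450 for the 5065 N2A peaks within 10 kb of the end in genes over 10 kb, called gene-end peaks here. A p below the median of the whole N2A list, 0.00605, was found for 31.6% (28.7 to 34.6) of deep peaks and 52.6% (51.2 to 54.0) of gene-end peaks. The difference was -21.0 percentage points (-24.2 to -17.7). In genes that held both kinds it was -27.2 points (-32.3 to -21.9). Values under 1e-10 were found for 31 deep peaks (3.22%) and 700 gene-end peaks (13.8%). Of the 1000 lowest p-values of the N2A list, 36 belonged to deep peaks, and the strongest deep peak took rank 65.

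**Figure D2:**
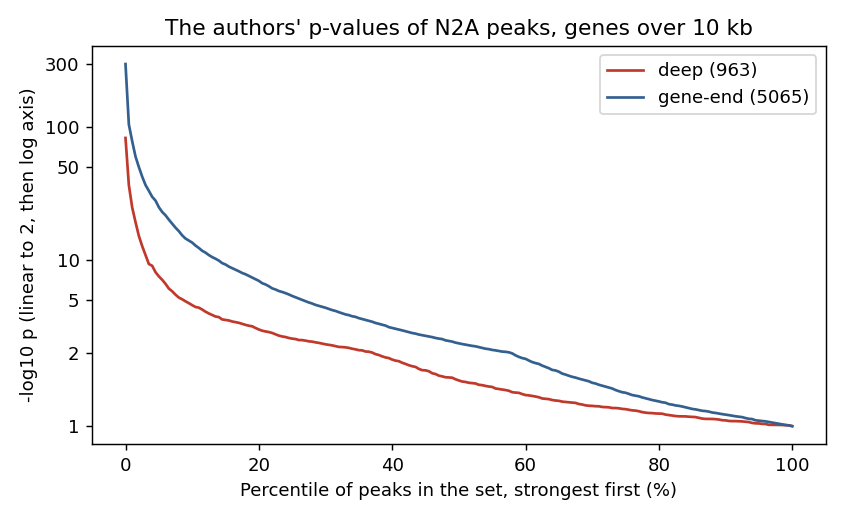
The authors' p-values (y axis, -log10, linear to 2 and logarithmic above) against the percentile of peaks within each set (x axis, %, strongest first), for 963 deep (red) and 5065 gene-end (blue) N2A peaks, with p-values listed as 0 drawn at 300. The deep curve lies below the gene-end curve over nearly the whole range, with medians of 0.0239 and 0.00450.

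Deep peaks also stood more alone. Another N2A peak lay within 1 kb on the same strand for 21.4% (18.9 to 24.1) of deep peaks and 67.4% (66.1 to 68.6) of gene-end peaks. No other N2A peak lay within 10 kb for 59.0% and 20.8%. By definition, gene-end peaks of 1 gene and strand share a stretch of 10 kb, and deep peaks need not. These differences are therefore partly set by the rule. A single deep peak was found in 400 of the 590 genes, 105 genes had 2, 59 had 3 or 4, and 26 had 5 or more. A gene-end N2A peak was present in 280 of the 590 genes (47.5%, 43.5 to 51.5), and 310 genes had deep N2A peaks alone. Peaks in several coding genes were not counted.

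The deep peak with the lowest p lay in Rbms3, which encodes an RNA-binding protein. It was found at chr9:117252269-117252320 (minus strand), 679.5 kb from the end of the gene, with a p of 7.48e-84. A cortex peak with a p of 4.21e-13 overlapped it. The next lay in Esyt2, an extended synaptotagmin that tethers the endoplasmic reticulum to the plasma membrane, at chr12:116371475-116371526 (plus strand), with a p of 2.17e-45. Its nearest cortex peak was 137 nt away. Adgrl1, the adhesion receptor latrophilin 1, followed with a peak at chr8:83900736-83900787 (plus strand) and a p of 2.63e-43. That peak lay 0.66 kb from the start of the gene and 21.3 kb from any cortex peak.

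Pabpc1, the cytoplasmic poly(A)-binding protein, had a p of 1.02e-40 at chr15:36608805-36608855 (minus strand), 0.75 kb from the gene start. With peaks in several coding genes left out, neither list had a peak within 10 kb of the Pabpc1 end. The peak of Cdk8, a kinase of the Mediator complex, had a p of 4.45e-40 and lay 41.8 kb from the gene end. It only just touched a cortex peak, with midpoints 51 nt apart. Trak1, an adaptor that links mitochondria to kinesin, had a peak with a p of 2.12e-37 that was on the strand opposite to the gene. Its midpoint was 2.5 nt from that of a cortex peak on the same opposite strand.

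The remaining genes among the 12 strongest deep peaks were Elavl2, Nupl1, Cadm1, Snx12 and Sema4d, with Cadm1 holding 2 of the 12. Nupl1, a nucleoporin, had a p of 1.31e-30. Snx12, a sorting nexin of endosomes, had a p of 1.11e-28 at 123.95 kb from the gene end. Sema4d, a membrane-bound semaphorin, had a p of 2.08e-25. Of the 12 peaks, 7 overlapped a cortex peak and 9 had another N2A peak within 1 kb.

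Samd5, which encodes a sterile alpha motif protein, held the most deep peaks, with 10 spread over 150.2 kb of a 413 kb gene. Its p-values ran from 4.95e-19 to 0.0289, and 5 of the 10 overlapped cortex peaks. Efna5, an ephrin that guides axons, held 9 deep peaks over 138 kb, with p-values from 0.000533 to 0.0728, and 8 gene-end peaks with a lowest p of 2.05e-11. The deep Efna5 peaks were thus dispersed and weak beside those at the end of the same gene. Map1b, which binds and stabilises microtubules, had 7 deep peaks within 15.6 kb (lowest p of 4.93e-10) and 11 gene-end peaks (lowest p listed as 0).

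Ankrd11, a chromatin regulator with ankyrin repeats, had 8 deep peaks between 1.35 and 55.3 kb from its start. None of the 8 overlapped a cortex peak, although the gene had 31 deep cortex peaks. Trps1, a GATA-type transcriptional repressor, had 7 deep peaks with no p below 0.0250, and its 8 gene-end peaks reached a p of 1.42e-16. Nsd3, a histone methyltransferase, also had 7, of which 4 lay within 1055 nt.

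Some genes held most or all of their deep peaks in compact groups. Ube2w, a ubiquitin-conjugating enzyme, had 8 deep peaks, 6 of them within 1088 nt about 30 kb from the annotated end, with p-values from 1.78e-06 to 0.0663. Rbm15, a component of the RNA methylation complex, had 7 within 3.65 kb, the strongest with a p of 1.78e-15. Aebp2, a subunit of Polycomb repressive complex 2, had 6, of which 5 lay within 1510 nt and the strongest had a p of 9.53e-10. Slc8a1, the sodium-calcium exchanger, and Ext1, an enzyme of heparan sulfate synthesis, each had 6 deep peaks and 0 at the gene end. Those of Ext1 were spread over 112 kb. Those of Slc8a1 lay 12.5, 13.2, 14.4, 14.7 and 15.2 kb from the gene end, just beyond the limit, apart from 1 at 247.9 kb. That peak alone made their span 235 kb. The lowest p was 4.34e-11 in Slc8a1 and 5.31e-10 in Ext1. Of these genes, Ube2w, Rbm15, Slc8a1, Ext1 and Aebp2 had no gene-end peak in N2A. Baz1b and Dip2c, tied at 6 deep peaks, came after them in order of the lowest p and are not described.

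**Figure D3:**
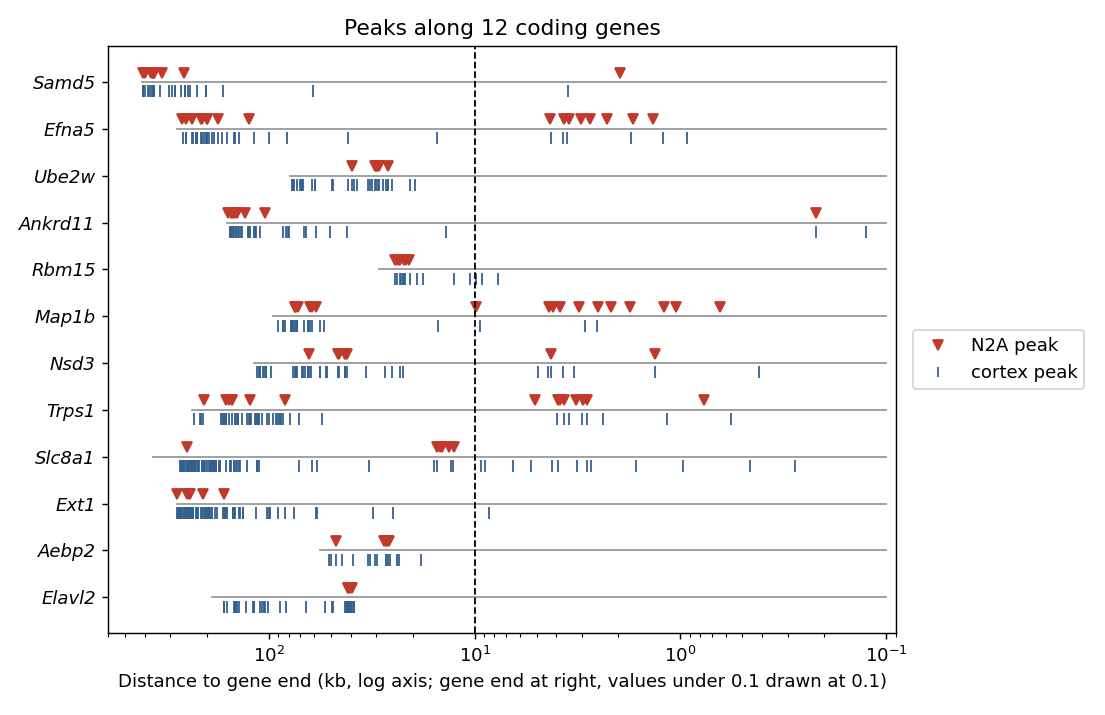
Peaks along the genes described above with 6 to 10 deep N2A peaks and along Elavl2 (rows), by distance to the gene end (x axis, kb, logarithmic, end at the right), with N2A peaks as red triangles and cortex peaks as blue ticks. The dashed line marks 10 kb, and Ube2w, Aebp2 and Elavl2 have no peak of either list to its right.

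With a gap of at most 1 kb, the 963 peaks formed 838 groups, of which 759 were single peaks, 52 held 2 and 27 held 3 or more. The 27 larger groups held 100 peaks in 26 genes, and in 23 of the groups at least 1 peak overlapped a cortex peak. Counted by peak, 41 of the 100 overlapped (41.0%, 31.9 to 50.8), against 47.3% (43.8 to 50.9) of single peaks. A p below the list's median was found for 48 of the 100 peaks in these groups (48.0%, 38.5 to 57.7). Among the single peaks the share was 27.5% (24.5 to 30.8). Elavl2, a neuronal member of the Elavl family itself, had all 5 of its N2A peaks in such a group of 1997 nt, 39.3 to 41.2 kb from the annotated end. Of those 5, 3 overlapped cortex peaks. The p-values of the 5 were 8.78e-32, 8.00e-12, 1.04e-05, 0.000490 and 0.0448. Cadm1, an adhesion molecule of synapses, had 5 within 1697 nt starting 10.1 kb from the end. Ctnnd1, the cadherin-binding p120 catenin, had 5 within 1807 nt (lowest p of 5.42e-13). Lamp2, a lysosomal membrane protein, had 4 within 1348 nt (lowest p of 1.75e-13). Ctnnd1 and Lamp2 were named after their values were seen.

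With peaks in several coding genes left out, some genes had no peak of either list within 10 kb of the annotated end. This held for 140 of the 590 genes (23.7%) and for 15 of the 85 genes with at least 3 deep peaks. No share for other genes is given beside these counts, so they are a description only. The 15 included Ube2w, Aebp2, Elavl2, Nupl1, Esyt2, Sema4d and Snx12. Elavl2 had 39 cortex peaks and Esyt2 had 42, all of them deep. Distances rest on the annotated span of the gene, and which transcripts these cells made was not tested.

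With the start taken on the strand of the peak, 33 deep peaks lay within 1 kb of it. Of these, 3 (2 in Atg7 and 1 in Zdhhc5) were on the strand opposite to the gene and so lay at its annotated end; they are left out here. The other 30, in 26 genes, were on the gene strand or in genes of unknown strand, and 15 of them overlapped cortex peaks (interval 33.2% to 66.8%). A p below the list's median was found for 18 of the 30 (60.0%, 42.3 to 75.4) and for 30.4% (27.5 to 33.4) of the deep peaks farther away. Besides Adgrl1 and Pabpc1, the strongest lay in Xpo1, the main exportin of proteins from the nucleus, 0.69 kb from its start (p of 2.85e-14). It overlapped a cortex peak. Arhgef11, a guanine nucleotide exchange factor, followed with a p of 8.40e-08. Jarid2, a partner of Polycomb repressive complex 2, had 2 such peaks, with p-values of 1.97e-05 and 5.69e-05. Arhgef11 and Jarid2 were named after their values were seen. Within 1 kb downstream of any start in the promoter table lay 31 deep peaks.

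At the other extreme, the 6 peaks farthest from the gene end lay in 5 very long genes. Macrod2, a hydrolase of ADP-ribose marks, had a peak 1899.7 kb from its end (p of 0.0119), with a cortex peak at an offset of 14.5 nt. Cntnap2, a contactin-associated protein of axons, had 1 at 1467.8 kb that lay opposite to the gene strand. Naaladl2 had 1 at 1228.6 kb, and its nearest cortex peak on that strand was 1548.6 kb away. The strand of Naaladl2 was not in the promoter table, and all 32 of its cortex peaks were on the other strand. On that other strand the gene end would be 117 kb away, and the peak would not be among the farthest. Immp2l, a mitochondrial inner membrane peptidase, had 2, at 838.9 and 803.1 kb, and the second lay at an offset of 0.5 nt from a cortex peak. Camta1, a calmodulin-binding transcription activator, had 1 at 732.9 kb.

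The strand of the gene was known from the promoter table for 748 of the deep peaks, of which 21 (2.81%, 1.84 to 4.25) lay on the opposite strand. Among deep cortex peaks 383 of 54479 did (0.703%, 0.636 to 0.777), and among gene-end N2A peaks 1 of 4071 (0.0246%, 0.00434 to 0.139). An opposite-strand peak counts as gene-end only within 10 kb of the annotated gene start, so the latter difference is partly set by the rule. Of the 21, 8 were within 10 kb of the end of the gene on its own strand and so were counted as deep because of their own strand alone. A cortex peak on the same strand lay within 1 kb for 8 of the 21 (38.1%, 20.8 to 59.1) and for 73.9% (70.6 to 76.9) of deep peaks on the gene strand. Trak1 had by far the lowest p of the 21, followed by Cntnap2 (9.98e-09), Itga9, an integrin subunit (2.94e-08), and Mvp, the major vault protein (6.41e-06). Mvp was named after its value was seen.

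Genes of other types were touched by 50 of the 963 deep peaks (5.19%), by position and on either strand. There were 34 touches of long noncoding RNA genes, 15 of pseudogenes, 1 of a small nucleolar RNA gene and 1 of the microRNA shown above. The peak at the nucleolar RNA gene lay in Ddx39b, an RNA helicase of mRNA export, with a p of 0.0779, and overlapped a cortex peak. Long noncoding genes touched included Gm52303, at 2 of the 9 Efna5 peaks.

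N2A and cortex were then compared to ask how often deep sites recurred in brain. A cortex peak overlapped 446 of the 963 deep N2A peaks on the same strand (46.3%, 43.2 to 49.5). The background was 42.5% of all N2A peaks in 1 coding gene. The midpoints of overlapping deep peaks were a median of 8.5 nt apart, and 9 pairs had the same midpoint. The 446 cortex partners were 0.648% of the deep cortex peaks. Of the partners, 78.9% (74.9 to 82.5) had a p below the median of the cortex list, against 45.5% of all deep cortex peaks. Deep N2A peaks with a p below the list's median overlapped cortex peaks in 53.9% (48.3 to 59.5) of cases and the weaker ones in 42.8% (39.1 to 46.6). That difference was 11.2 points (4.37 to 17.8). These traits were not particular to deep peaks. Overlapping gene-end peaks also had a median offset of 8.5 nt, and 86.5% (84.9 to 87.9) of their partners were below the cortex median. Gene-end peaks with a p below the N2A list's median overlapped in 47.2% of cases and the weaker ones in 35.6%.

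Against gene-end peaks the direction depended on how close a cortex peak had to be. Direct overlap was found for 41.7% (40.4 to 43.1) of gene-end peaks, so that deep peaks were 4.60 points higher (1.18 to 8.03). In genes with both kinds of peak the shares were 46.0% and 39.9%. With midpoints within 200 nt, deep peaks were at 60.3% (57.2 to 63.4) and gene-end peaks at 65.3% (64.0 to 66.6), a difference of -5.00 points (-8.38 to -1.68). With peaks of p under 0.001 alone in both lists the difference was -0.53 points (-7.58 to 6.85). A cortex peak within 1 kb was found for 74.4% of deep and 89.4% of gene-end peaks. Among deep peaks the share with direct overlap was 40.0% (33.9 to 46.4) at 10 to 20 kb from the end and 51.1% (42.9 to 59.2) beyond 200 kb. It was 38.0% (29.1 to 47.8) at 100 to 200 kb, with no steady order over the classes.

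**Figure D4:**
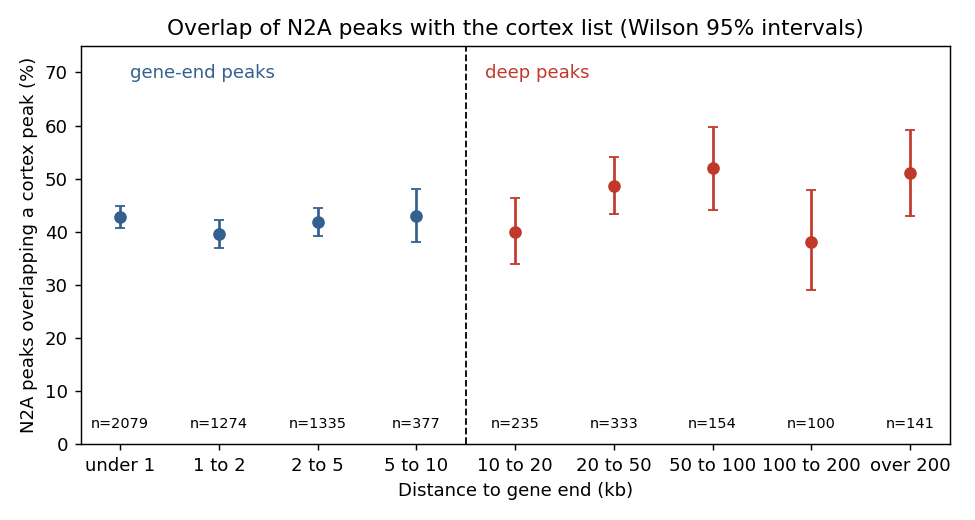
Share of N2A peaks that overlap a cortex peak by at least 1 nt on the same strand (y axis, %, Wilson 95% intervals) by distance to the gene end (x axis, kb), in genes over 10 kb. Gene-end classes (blue) lie between 39.6% and 43.0%, and deep classes (red) between 38.0% and 51.9%.

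Most genes with deep N2A peaks also carried cortex peaks. This held for 549 of 590 genes (93.1%, 90.7 to 94.8). A deep cortex peak was found in 534, against 39.5% of all coding genes over 10 kb. That share was 25.2% for coding genes of 10 to 50 kb, 58.1% for 50 to 100 kb and 88.5% over 500 kb. The median span was 78.1 kb for the 590 genes and 33.1 kb for all coding genes over 10 kb. The part of gene length was not tested. The other 41 of the 590 genes had no cortex peak, with peaks in several coding genes not counted. Among these, Racgap1, which acts in cytokinesis, had 4 deep N2A peaks with a lowest p of 2.62e-05. Rbl1, the retinoblastoma-like protein p107 of the cell cycle, had 2 deep and 2 gene-end peaks. Baiap2l1, an actin-binding membrane protein, had the same numbers. Potegl and Apobec3, a cytidine deaminase, had 2 deep peaks each, about 0.11 kb apart in both genes. Both Potegl peaks also touched the pseudogene Gm13422. Gata4, a transcription factor of heart and endoderm, had 1 deep peak, with a p of 4.90e-10, at chr14:63241197-63241247 (minus strand). Itga9 and Slc22a27, an organic anion transporter, had 1 each, the former opposite to its gene strand and the latter within the pseudogene Gm6192. Of the 963 peaks, 105 (10.9%, 9.09 to 13.0) were more than 10 kb from any cortex peak on their strand. Of gene-end peaks 5.69% (5.08 to 6.36) were that far.

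The last comparison asked which groups of genes held deep N2A peaks, over 20 hand-written lists. Counts are of members over 10 kb, beside 4.23% of all coding genes over 10 kb and 23.1% of those with any N2A peak. Any N2A peak was found in 18.3% of coding genes over 10 kb. The interval of the share lay above 4.23% for 14 lists and included it for 6. Over members with any N2A peak, present in 18 lists, the interval lay above 23.1% for 4 lists and included it for 14. The 4 were neuronal splicing regulators (8 of 13), mRNA decay and microRNA factors (9 of 19), ubiquitin ligases and proteases (12 of 23) and axon guidance and adhesion (9 of 15). Both counts of 9 include a gene with an opposite-strand peak alone, Smg6 and Cntnap2. The lists were chosen with earlier results of these data known, and no allowance was made for their number. These counts are a description only. The share was 23.8% for nuclear pore and transport genes, 23.1% for actin regulators, 22.2% for cleavage factors and 21.1% for MAP kinase and PI3 kinase genes. Expression was not measured, and most lists hold longer genes than the 33.1 kb median of the background. Their part in these shares was not tested.

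**Figure D5:**
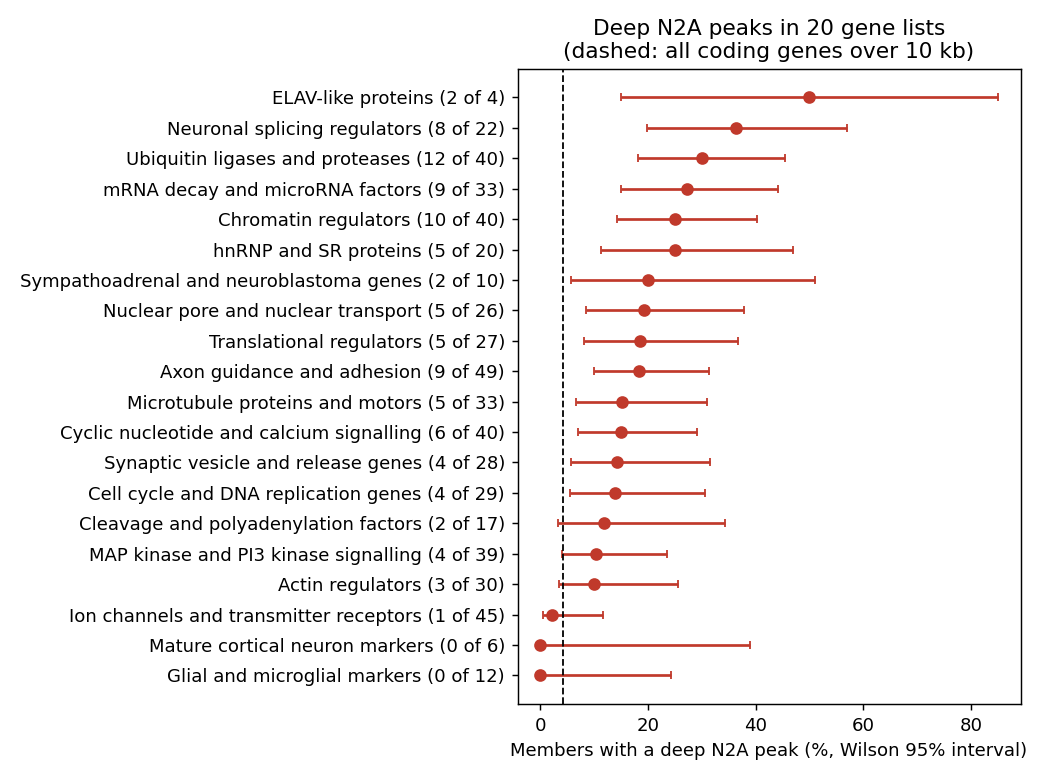
Share of members over 10 kb with a deep N2A peak (x axis, %, Wilson 95% intervals) in 20 gene lists (rows, with counts). The dashed line is the 4.23% of all coding genes over 10 kb, and the lists run from 2 of 4 ELAV-like genes to 0 of 12 glial and microglial markers.

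Among regulators of RNA, deep peaks were found in 8 of 22 neuronal splicing regulators (36.4%, 19.7 to 57.0), which were 8 of the 13 with any N2A peak. Their median span was 117 kb. Celf1 and Rbfox2 had 2 each, and the lowest p of the list was that of Mbnl1, the muscleblind splicing factor, at 2.34e-08. Both Celf1 peaks overlapped cortex peaks and neither Rbfox2 peak did. Of the hnRNP and SR proteins over 10 kb, 5 of 20 had a deep peak. Tra2a, a splicing activator, had 3 within 424 nt between 2.42 and 2.80 kb from its start, and all 3 overlapped cortex peaks. Srsf10 had 2, and Hnrnpu and Hnrnpd had 1 each, and no deep peak of Srsf10, Hnrnpu or Hnrnpd had a p below 0.0237. Their gene-end peaks were stronger, with lowest p-values of 0.000303 in Srsf10, 1.66e-39 in Hnrnpu and 5.10e-58 in Hnrnpd.

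Of the ELAV-like genes, Elavl2 and Elavl4 had deep peaks, and the single one of Elavl4 had a p of 0.0343. Factors of mRNA decay and microRNA action had deep peaks in 9 of 33 members (27.3%, 15.1 to 44.2). Xrn2, the nuclear exonuclease that acts in transcription termination, had 2, with a lowest p of 2.42e-07. The CCR4-NOT subunits Cnot1 and Cnot2 had 2 each, and Smg1, the kinase of nonsense-mediated decay, had 1 (p of 3.69e-06). The only peak of Smg6, also counted among the 9, was opposite to the gene strand. Translational regulators had deep peaks in 5 of 27 members, namely Pabpc1, Cpeb4, Eif4g2, Ythdf3 and Eif3a. Cleavage and polyadenylation factors had them in 2 of 17, Sympk and Fip1l1, each with 1 peak (p of 0.0260 and 0.0566).

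Ubiquitin ligases and proteases had deep peaks in 12 of 40 members (30.0%, 18.1 to 45.4). Ube3c had 3 and Ube2k had 2. Ube3a, the ligase affected in Angelman syndrome, had 1 deep peak (p of 0.000182) beside 10 gene-end peaks, and Huwe1 had 1 with a p of 0.00291. The Ube3a peak lay on the plus strand in a span shared with the noncoding gene Snhg14. Chromatin regulators had deep peaks in 10 of 40 members (25.0%, 14.2 to 40.2). Rere, a nuclear receptor corepressor, had 5 deep peaks with a lowest p of 0.00137, of which 1 overlapped a cortex peak. Setd5 had 4, Arid1a, a subunit of the BAF remodelling complex, had 3 (lowest p of 6.88e-06), and Jarid2 had 2.

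Nuclear pore and transport genes had deep peaks in 5 of 26 members, which were 5 of the 21 with any N2A peak, led by Xpo1 with 4 and the importin Tnpo1 with 3. Kpnb1, importin beta, had 2 and Nup205 had 1. Axon guidance and adhesion genes had deep peaks in 9 of 49 members (18.4%, 9.98 to 31.4, with the opposite-strand peak of Cntnap2 counted). These were 9 of the 15 with any N2A peak, and 44 of the 49 had deep cortex peaks. Their median span was 424 kb, and 78.5% of coding genes of 200 to 500 kb had a deep cortex peak. After Efna5 and Cadm1, Sema4d had 4 and Ncam1, the neural cell adhesion molecule, had 3. Microtubule genes had deep peaks in 5 of 33 members, and outside Map1b these were single peaks (Dync1h1, Clasp1, Mapt and Dclk1) with no p below 0.0394.

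Cyclic nucleotide and calcium signalling genes had deep peaks in 6 of 40 members, and 19 of the 40 had any N2A peak. Pde10a, a phosphodiesterase, had 2, of which 1 was opposite to the gene strand and in the pseudogene Gm17087. The calcium pump gene Atp2a2 had 1 with a p of 1.41e-07, and Prkce, a protein kinase C, had 1 with a p of 1.34e-05. Synaptic vesicle and release genes had them in 4 of 28 members, with 3 peaks in Rims2, an active zone scaffold, 2 in Syn2 and 1 each in Sv2c and Rab3c. MAP kinase and PI3 kinase genes had them in 4 of 39, among them Irs2, Rptor and Map2k1 with 1 peak each. Actin regulators had them in 3 of 30, namely Dock4, Abi1 and Trio.

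Cell cycle genes had deep peaks in 4 of 29 members, with 2 peaks each in Cdk8 and Rbl1 and 1 each in E2f3 and Top2b. Sympathoadrenal and neuroblastoma genes had them in 2 of 10. Alk, a receptor kinase activated by mutation in neuroblastoma, had 1 at chr17:72316812-72316862 (minus strand), 447.8 kb from the gene end, with a p of 2.11e-17. A cortex peak overlapped it. Lin28b, which blocks maturation of let-7 microRNAs, had 1 with a p of 8.08e-08, and no cortex peak lay within 10 kb of it on that strand. Ion channels and transmitter receptors had deep N2A peaks in 1 of 45 members (2.22%, 0.393 to 11.6), and 2 of the 45 had any N2A peak. All 45 had deep cortex peaks. Their median span was 378 kb. Of coding genes of 200 to 500 kb, 11.7% had a deep N2A peak and 78.5% a deep cortex peak. The part of gene length was not tested. The member with deep peaks was Cacna1c, a calcium channel pore, with 2 deep peaks that both overlapped cortex peaks. Mature cortical neuron markers (0 of 6) and glial and microglial markers (0 of 12) had none, and none of them had any N2A peak.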

How the data were processed

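Elavl HITS-CLIP peak lists of mouse cortex (3 samples, 1 list) and N2A cells (1 sample, 1 list) were used as deposited. Per the labels, bound RNA was partly digested, ligated to linkers and amplified by PCR. The p-value of each peak was made by the authors. The sources used here do not give the peak caller, any adjustment of the p-value or how samples were merged. Per the submitters' processing notes, reads were aligned with Novoalign, and the notes name hg19, while the lists have mouse chromosome names and were read here as GRCm38 positions. Whether positions count from 0 is not stated. For the sequences shown, peak starts were read as counting from 0, and other peak positions are given as listed.

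Peaks were set against gene spans, promoter windows and microRNAs of RefSeq for GRCm38.p6 in Python 3.11.15 with scipy 1.17.1. Overlap of N2A and cortex peaks meant 1 nt on the same strand. Peaks were assigned to gene spans of every type by position, whatever the strand. Counts of peaks per coding gene used peaks that touched exactly 1 coding gene. No filter on the p-value was applied. Distances and overlaps were checked on simulated peaks. Members and the 20 lists (606 entries, of which the symbol Scn2a1 was not matched) were chosen with earlier results of these data known. Named genes are those with the most, strongest, farthest or nearest-to-limit deep peaks, those without cortex peaks, and up to 4 per list; others are marked in the text. Exons, untranslated regions and peak sequences outside the windows were not analysed here. Some named genes are not reported here.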

Additional observations from a re-analysis of the deposited data

How the results depend on the processing

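No paired analysis was possible because each group was given as 1 list without values per sample, and for the same reason no replicate was left out. Of 53 alternative values, 35 kept their direction and lay within the counting interval or 1.5 times the count reported, 16 moved and 2 changed sign. The cause of these changes was not tested, beyond the smaller sets that stricter limits leave.

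Deep peaks as a share of all N2A peaks, 13.1% as reported, were 18.6% with a limit of 5 kb, 9.93% with 20 kb and 5.39% with 50 kb. They were 11.2% with p under 0.05 and 6.86% with p under 0.001 in both lists. They were 12.2% with the strand of most peaks in genes with at least 3 peaks, and 9.91% with the annotated strand of the gene, an alternative chosen after seeing the data. Overlap of deep peaks with cortex was 41.1% with p under 0.001, 41.4% when 50% of the peak had to overlap and 60.3% with midpoints within 200 nt. The deep minus gene-end difference in overlap became -0.53 points with p under 0.001 and -5.00 points with midpoints within 200 nt. Genes with deep peaks numbered 242 with the 50 kb limit and 151 with p under 0.001. Those that also had a gene-end peak were 53.7% with 50 kb, 43.0% with p under 0.05 and 31.1% with p under 0.001. Deep peaks with a p below the list's median were 34.9% with the 5 kb limit.

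Each list comes without read counts, so depth is unknown and no value can be given for what weaker sites were missed.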
